A study of Mus musculus with 6 samples.

Results

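Notch pathway genes were followed in muscle stem cells (MuSCs) with and without *Sirt6*. The genes were *Notch1*, *Notch2*, *Notch3*, *Rbpj*, *Hes1*, *Hes6*, *Hey1*, *Heyl*, *Jag1* and *Dll1*, each taken by its symbol from the deposited expression table. They make up 10 of the 25166 genes in that table, and all 10 lay above the minimum level for testing. MuSCs were isolated by FACS from muscle of C57BL/6 mice, and RNA of 3 Sirt6mKO and 3 control (Ctrl) samples was sequenced, with 1 library per sample. Sirt6mKO mice carried floxed *Sirt6* alleles (Sirt6 fl/fl) and Pax7-ICNCre, a Cre recombinase driven by the Pax7 promoter, so that recombination covers the whole skeletal muscle lineage and not MuSCs alone. The labels call the controls wild type, whereas the study's legend describes Cre-negative Sirt6 fl/fl mice, and the same legend gives an age of 12 weeks. An effect of Cre itself, or of the Cre allele on *Pax7*, cannot be told apart from the loss of *Sirt6* in this comparison. The study also lists a ROSA26-YFP reporter in the Sirt6mKO cross. Had sorting differed between the genotypes, its effect could not be told apart either. The labels give 100 to 200 sorted cells and 1 to 5 ng of RNA per library, and they do not say whether each library came from a separate animal, so that p-values measure the spread between these samples.

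Notch receptors are membrane proteins that are cut after they bind a ligand of the Delta or Jagged family on a neighbouring cell. The released intracellular domain enters the nucleus, joins the DNA-binding protein RBPJ and activates target genes, among them the HES and HEY transcriptional repressors. In resting muscle, active Notch signalling is known to hold MuSCs in quiescence and to support *Pax7*, the transcription factor that defines them, and signalling falls when the cells become committed.

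All values are given as signal, taken to be the reads of a gene divided by a size factor of its library and rounded. This scaling makes the libraries comparable. Between 1267027 and 3209958 reads per library lay behind the signal, and control replicate 3 was the shallowest. In that library 1 read was worth a signal of 1.792, so its low values are the least precise. *Sirt6* itself gave 19, 20 and 13 in Sirt6mKO by label against 18, 17 and 20 in Ctrl (limma-trend adjusted p = 0.91, by the Benjamini-Hochberg (BH) method). Only some of its exons are floxed and the table holds 1 value per gene, so this gene does not check the labels. All 10 markers of quiescent MuSCs were detected, with a summed signal of 11311 to 11773 in Sirt6mKO and 12737 to 14037 in Ctrl, sums that did not overlap. By limma-trend adjusted p, *Pax7* (log2 fold change -0.84) and *Chrdl2* (-1.10) of these markers were lower in Sirt6mKO and *Cd34* (0.60) was higher. The log2 fold change was above 0 for 4 of the 10 and below 0 for 6, with a median of -0.15. Most of the difference between the sums came from *Pax7* (mean signal 1986 in Sirt6mKO against 3555 in Ctrl) and *Chrdl2* (426 against 910). Of the 7 endothelial markers in the table, *Cdh5*, *Kdr*, *Flt1*, *Cldn5* and *Egfl7* lay at 7 or below in every library, *Pecam1* ranged from 4 to 29 and *Tek* from 349 to 562, and the detected immune markers summed to 36 to 77.

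Upstream sequences of the 3 genes with the lowest p-values, *Jag1*, *Notch3* and *Dll1*, are printed first. They come from RefSeq (GRCm38.p6), in which 7 of the 10 genes were matched and *Hes1*, *Hey1* and *Heyl* were not. Each runs 5′ to 3′ along the gene and ends before its annotated start. They lie at chr2:137116645-137116770, chr17:32166891-32167140 and chr17:15376933-15377182, all on the minus strand. Capitals mark CACGCG or its reverse complement CGCGTG, the class C site that HES proteins can bind.
Jag1: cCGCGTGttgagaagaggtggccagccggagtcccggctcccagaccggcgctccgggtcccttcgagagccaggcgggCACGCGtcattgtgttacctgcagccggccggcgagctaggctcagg
Notch3: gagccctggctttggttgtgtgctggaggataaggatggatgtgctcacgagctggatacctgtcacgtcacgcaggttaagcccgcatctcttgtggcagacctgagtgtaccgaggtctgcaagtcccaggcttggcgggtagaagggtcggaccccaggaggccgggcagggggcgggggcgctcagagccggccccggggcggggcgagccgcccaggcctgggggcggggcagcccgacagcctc
Dll1: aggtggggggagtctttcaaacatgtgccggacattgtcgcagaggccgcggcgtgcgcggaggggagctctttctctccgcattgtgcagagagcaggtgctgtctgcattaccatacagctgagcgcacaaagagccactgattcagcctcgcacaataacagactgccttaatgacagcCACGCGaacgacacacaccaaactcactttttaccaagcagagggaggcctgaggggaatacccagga
The 126 bases of *Jag1* held the site at 2 places, the 250 bases of *Dll1* held it at 1 place, and those of *Notch3* held none. Over the 250 bases before every start in the table, 7.62% of 32851 promoters held these letters on either strand, against 3 of the 10 promoters listed for the matched genes, which were those of *Jag1*, *Dll1* and *Notch2*. GTGGGAA, the core of the RBPJ motif, stood in 5.42% of all promoters and the E-box CACGTG in 6.02%, and neither stood in any of the 10. These matches describe letters only, and binding was not measured.

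Across the 10 genes, *Jag1* was higher in Sirt6mKO, and it was the only one past a limma-trend BH-adjusted p of 0.05, with the adjustment made over all 14227 tested genes. This is 1 of 10 genes, against 4.52% of all tested genes (2.64% higher and 1.88% lower), and a single gene does not set the group apart from that background. None of the 10 also changed by 2-fold, against 2.59% of all tested genes past both thresholds (1.57% higher and 1.02% lower). By limma voom on recovered reads the count past both was 0 as well, and at an unadjusted p under 0.05 limma-trend gave 4 of the 10 and 18.1% of all tested genes. Of those 4, *Jag1* and *Notch3* were higher, against 9.97% of all tested genes, and *Dll1* and *Heyl* lower, against 8.14%. The log2 fold change was above 0 for 6 genes and below 0 for 4, with a median of 0.04 against 0.00 over all tested genes. The 2 groups did not overlap for *Jag1* and *Notch3*, that is for 2 of 10 genes, and such a separation was found for 21.2% of all tested genes, with Sirt6mKO above in 11.1% and below in 10.1%.

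**Figure D1:**
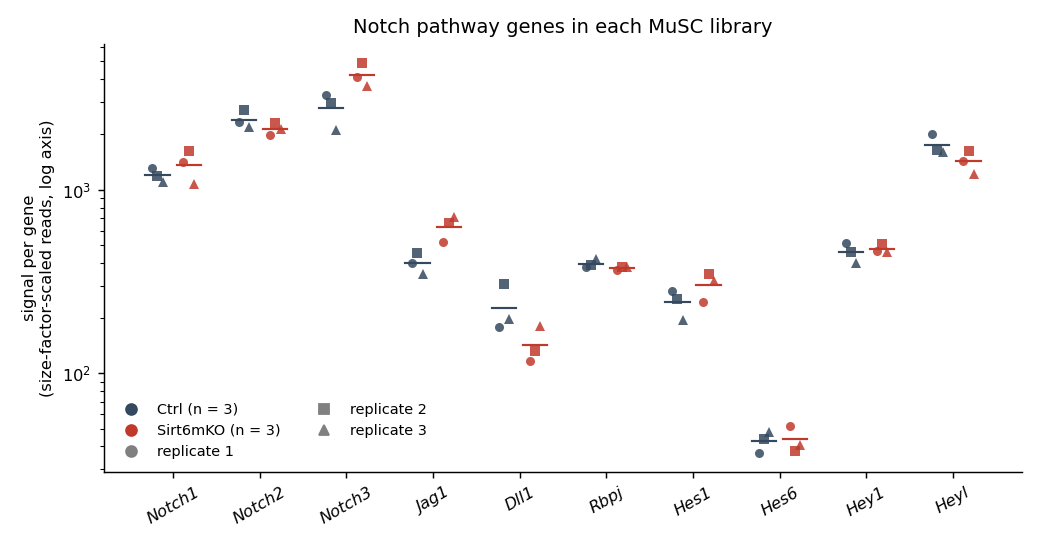
Signal of the 10 Notch pathway genes in each of the 6 libraries, on a log10 axis, with 1 symbol per replicate number and a line at each group's mean. All Sirt6mKO libraries lie above all Ctrl libraries for *Notch3* and *Jag1*, and the groups overlap for the other 8 genes.

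**Figure D2:**
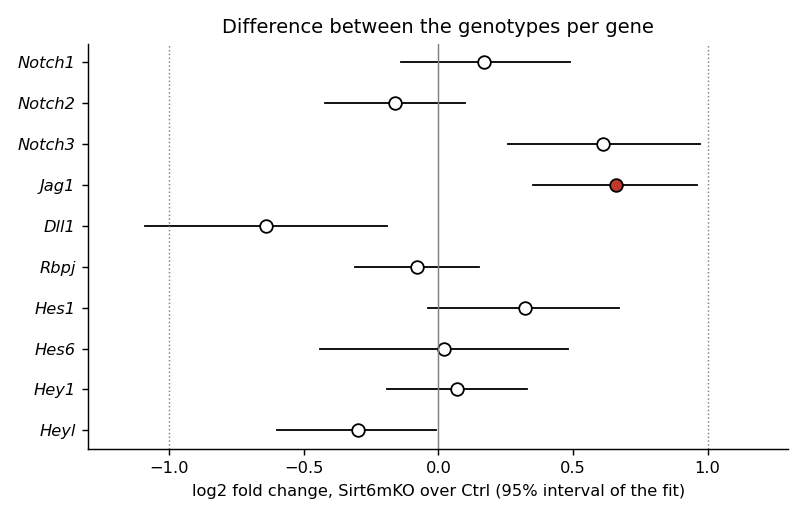
Log2 fold change of Sirt6mKO over Ctrl for each gene, with 95% confidence intervals from limma-trend on 3 libraries per group. *Jag1* at 0.66 is the filled point, past an adjusted p of 0.05, and the dotted lines at -1 and 1 mark a 2-fold change.

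Of the receptors, *Notch3* had the largest fold change. Sirt6mKO replicates 1, 2 and 3 gave a signal of 4104, 4873 and 3688, and Ctrl gave 3289, 2967 and 2112, or 4222 ± 601 against 2789 ± 608 (SD, n = 3 per group). Every Sirt6mKO library lay above every Ctrl library, and control replicate 3, the shallowest, was the lowest. The log2 fold change was 0.61 ± 0.16 (SE, 95% confidence interval 0.26 to 0.97), a fold of 1.53, and missed the threshold (limma-trend BH-adjusted p = 0.056). Of 19 alternative settings, 5 put it past the threshold, and without control replicate 3 the value was 0.42 with an adjusted p of 0.14. *Notch3* (ENSMUSG00000038146) lies on chromosome 17 of GRCm38 at 32120820 to 32166852, on the minus strand, and shares 488 exon bases with *Gm17276* on the other strand, which had a signal of 17 to 36.

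*Notch1*, which encodes a broadly expressed receptor, had a signal of 1408, 1628 and 1075 in Sirt6mKO and 1309, 1185 and 1104 in Ctrl. The groups overlapped, since Sirt6mKO replicate 3 was the lowest of the 6 libraries. Its log2 fold change was 0.17 ± 0.14 (SE, interval -0.14 to 0.49, limma-trend BH-adjusted p = 0.59). *Notch2* had 1999, 2324 and 2137 in Sirt6mKO and 2332, 2711 and 2194 in Ctrl. Control replicate 2 was the highest and Sirt6mKO replicate 1 the lowest, with the others interleaved. The log2 fold change of *Notch2* was -0.16 ± 0.12 (SE, interval -0.42 to 0.10, limma-trend BH-adjusted p = 0.53). *Notch1* (ENSMUSG00000026923) is at 26457903 to 26516663 on the minus strand of chromosome 2 and *Notch2* (ENSMUSG00000027878) at 98013527 to 98150361 on the plus strand of chromosome 3. *Notch2* shares 541 exon bases with *Gm42820* on its own strand, and reads on both genes were left out by the authors' counting. *Notch4*, the remaining receptor gene, had a signal of 2 to 7 and was too low to test.

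*Jag1* and *Dll1* encode ligands, which in muscle are presented to MuSCs by other cells and can also be made by MuSCs themselves. For *Jag1*, Sirt6mKO replicates 1, 2 and 3 gave a signal of 518, 661 and 709 and the controls 397, 451 and 346. The lowest Sirt6mKO library lay above the highest control, with group means of 629 ± 99.4 and 398.0 ± 52.5 (SD, n = 3 per group). The log2 fold change was 0.66 ± 0.14 (SE, interval 0.35 to 0.96, limma-trend BH-adjusted p = 0.020), a 1.58-fold higher signal with an interval of 1.27 to 1.95. In bulk samples more cells that express a gene and more RNA per cell cannot be told apart. The call was kept in all 13 alternatives that used the 6 libraries. It was lost in 3 of the 6 leave-one-out fits, with a log2 fold change of 0.61 (adjusted p = 0.11) without Sirt6mKO replicate 2, 0.56 (adjusted p = 0.080) without Sirt6mKO replicate 3 and 0.56 (adjusted p = 0.063) without control replicate 3. *Jag1* (ENSMUSG00000027276) lies on chromosome 2 at 137081456 to 137116644, on the minus strand, and no annotated gene overlaps it.

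*Dll1* went the other way without passing the threshold. Sirt6mKO gave 117, 132 and 181 and Ctrl 178, 306 and 197, or 143 ± 33.5 against 227 ± 69.1 (SD, n = 3 per group). The groups touched at a single pair of libraries, since Sirt6mKO replicate 3 at 181 lay above control replicate 1 at 178. The log2 fold change was -0.64 ± 0.21 (SE, interval -1.09 to -0.19, limma-trend BH-adjusted p = 0.11), and the adjusted p ran from 0.061 to 0.38 over its alternatives. Without control replicate 2, the highest library, the value was -0.41. *Dll1* (ENSMUSG00000014773, chromosome 17, 15367354 to 15376872, minus strand) shares 867 exon bases with *A930024N18Rik* on the other strand, and it is not stated whether counting used the strand. Of the other ligand genes, *Jag2* had a signal of 36, 34 and 19 against 36, 15 and 11, and *Dll3* and *Dll4* lay at 2 or below in every library.

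**Figure D3:**
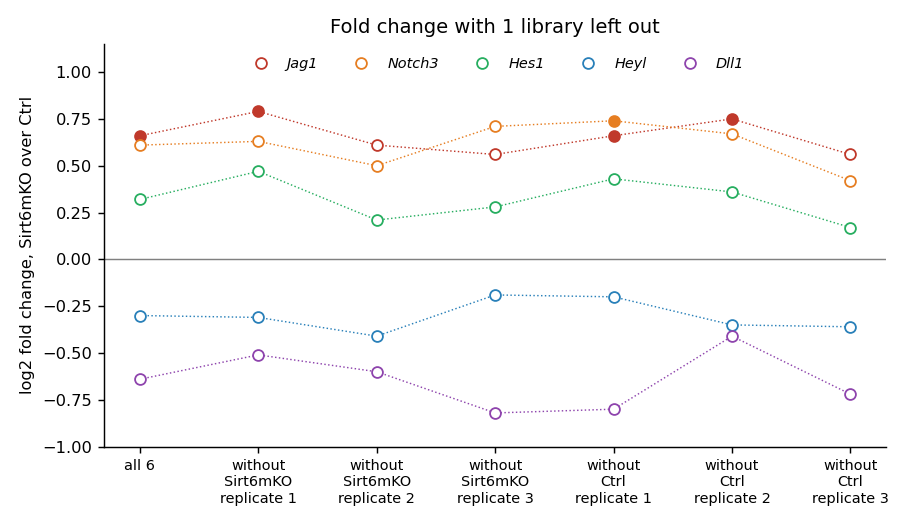
Log2 fold change of *Jag1*, *Notch3*, *Hes1*, *Heyl* and *Dll1* with all 6 libraries and with each library left out, with filled points at 0.05 by BH-adjusted limma-trend. *Jag1* runs from 0.56 to 0.79 and is filled in 3 of the 6 fits, and *Notch3* runs from 0.42 to 0.74 and is filled only without control replicate 1.

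*Rbpj*, which encodes the DNA-binding partner of the cleaved receptors, had the narrowest spread of the 10 genes relative to its level in Ctrl. The Sirt6mKO libraries had 365, 378 and 380, and the controls 379, 389 and 421. Sirt6mKO replicate 3 at 380 and control replicate 1 at 379 were interleaved. The log2 fold change was -0.08 ± 0.11 (SE, interval -0.31 to 0.15, limma-trend BH-adjusted p = 0.76). This interval leaves room for folds of 0.807 to 1.11 and for none of 2-fold. *Rbpj* (ENSMUSG00000039191) lies on the plus strand of chromosome 5 at 53466152 to 53657362. A processed pseudogene, *Rbpj-ps3*, had a signal of 34, 72 and 101 in Sirt6mKO and 25, 28 and 45 in Ctrl (limma-trend BH-adjusted p = 0.15). It was picked after its values were seen, and since reads can be shared with near-identical copies, the values of both are uncertain to that extent.

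Of the HES and HEY repressors, none passed the threshold. *Heyl* had a signal of 1429, 1635 and 1216 in Sirt6mKO and 2023, 1642 and 1613 in Ctrl. Sirt6mKO replicate 2 lay between the controls, so the groups overlapped by this 1 library. Its log2 fold change was -0.30 ± 0.13 (SE, interval -0.60 to -0.01, limma-trend BH-adjusted p = 0.25). *Hes1*, a classical direct Notch target, had 245, 348 and 319 in Sirt6mKO and 282, 254 and 195 in Ctrl. Here Sirt6mKO replicate 1 fell among the controls while the others stood above them, with a log2 fold change of 0.32 ± 0.16 (SE, interval -0.04 to 0.67, limma-trend BH-adjusted p = 0.34). *Heyl* and *Hes1* thus had fold changes of opposite sign, and neither passed the adjustment over all genes, although the unadjusted interval of *Heyl* lay just below 0.

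*Hey1*, which together with *Heyl* is known to be needed for the maintenance of MuSCs, had a signal of 463, 507 and 458 in Sirt6mKO and 513, 456 and 398 in Ctrl. The groups overlapped fully, with both the highest and the lowest library among the controls, and the log2 fold change was 0.07 ± 0.12 (SE, interval -0.19 to 0.33, limma-trend BH-adjusted p = 0.83). Without control replicate 3 it was -0.02. *Hes6*, whose product opposes HES1 and favours differentiation, was the lowest of the 10 genes, at 52, 38 and 41 in Sirt6mKO and 37, 44 and 48 in Ctrl. Only 27 to 63 reads per library lay behind these values. Its log2 fold change of 0.02 ± 0.21 (SE, interval -0.44 to 0.48, limma-trend BH-adjusted p = 0.98) took either sign with other scalings or with a library left out. *Hes1* (ENSMUSG00000022528) is at 30064384 to 30067796 of chromosome 16, *Hes6* (ENSMUSG00000067071) at 91411483 to 91414038 of chromosome 1, *Hey1* (ENSMUSG00000040289) at 8663359 to 8667256 of chromosome 3 and *Heyl* (ENSMUSG00000032744) at 123233556 to 123249875 of chromosome 4. No annotated gene overlaps any of these 4.

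Levels between genes were compared as signal per kb of exon in the controls. *Notch3* at 345 ± 75.2 and *Heyl* at 344 ± 44.7 (SD, n = 3) stood at the top and overlapped. *Notch2* followed at 224 ± 24.8, below every control value of both. *Hey1* at 139.6 ± 17.6 and *Hes1* at 119.6 ± 21.8 came next and overlapped. *Notch1* at 84.3 ± 7.25 lay below them, so that the 3 receptor genes were separated from each other in the order *Notch3*, *Notch2*, *Notch1*. The ligand genes overlapped, with *Jag1* at 68.3 ± 9.01 and *Dll1* at 53.8 ± 16.4, and below them were *Rbpj* at 31.1 ± 1.72 and *Hes6* at 23.8 ± 3.08. This order depends on the gene length used. With the length of the principal transcript, *Rbpj* moved to 72.9 and above both ligand genes, and *Heyl* at 388 stood above *Notch3* at 348.

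The composition within a role was then read as each gene's share of the summed level per kb in a library, a measure that, apart from rounding, does not depend on the size factor. Only genes of the 10 entered these sums, so *Jag2* and *Hey2* did not. *Notch3* made up 64.1, 64.6 and 62.5% of the 3 tested receptor genes in Sirt6mKO and 56.9, 52.3 and 48.2% in Ctrl. *Notch2* made up 23.4, 23.1 and 27.2% against 30.3, 35.8 and 37.5%. The groups did not overlap for either gene, with mean differences of 11.3 and -9.98 percentage points, whereas the *Notch1* share overlapped at 11.7 ± 1.18% and 13.0 ± 1.23% (SD, n = 3 per group). *Jag1* held 76.2, 78.4 and 73.9% of the sum of *Jag1* and *Dll1* in Sirt6mKO and 61.8, 51.6 and 56.0% in Ctrl, a difference of 19.7 points between groups that did not overlap. *Heyl* held 49.0, 47.9 and 42.7% of the sum of *Hes1*, *Hes6*, *Hey1* and *Heyl* in Sirt6mKO and 55.6, 52.7 and 56.4% in Ctrl. The shares of *Hes1* and *Hey1* were higher in every Sirt6mKO library, by 5.93 and 2.18 points in the mean. Shares within a sum move against each other by construction, so they show unequal change of the genes and not which of them changed, and no p is given for them. The share of *Hey1* separated the groups although its signal overlapped. How often shares of other genes separate was not determined, and signal alone did so for 21.2% of all tested genes.

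**Figure D4:**
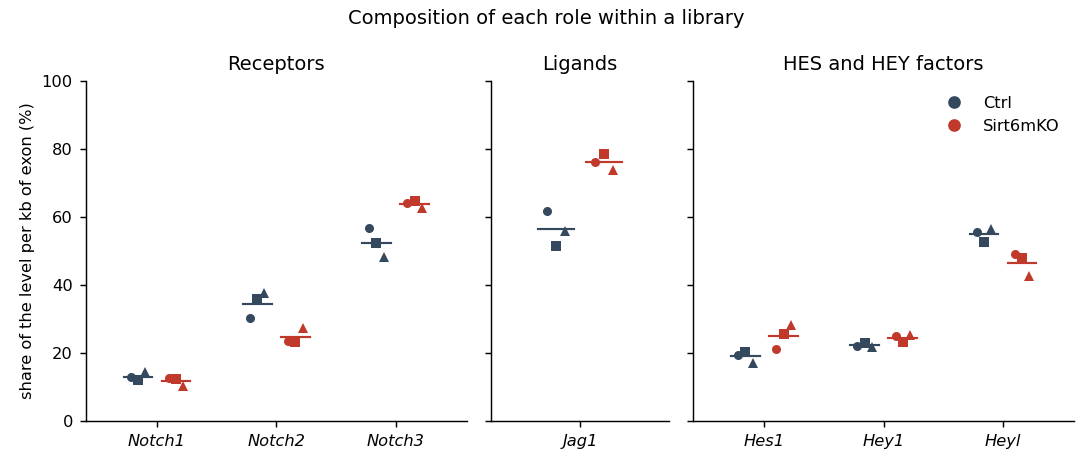
Share of each gene within a library, in percent of the summed signal per kb of those of the 10 genes in its role. Each replicate number has 1 symbol, and a line marks each group's mean. *Notch3* and *Jag1* hold a larger share, and *Notch2* and *Heyl* a smaller share, in every Sirt6mKO library than in every Ctrl library, while *Notch1* overlaps.

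A longer list of 68 pathway genes, which holds the 10 genes above, set them in context. Of these, 65 were in the table and 57 were tested, of which 3 were higher and 2 lower at 0.05 by BH-adjusted limma-trend, or 8.77% against 4.52% of all tested genes. The median log2 fold change of the list was 0.02, with 31 genes above 0 and 26 below. Besides *Jag1*, the higher genes were *Dlk1* and *Col6a2*, and the lower ones were *Pax7* and *Numb*. No other gene of the list passed.

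*Dlk1*, a Delta-like membrane protein that is not a canonical Notch ligand, was the only gene of the list past both thresholds. Sirt6mKO libraries reached 68, 65 and 99, and controls 25, 16 and 5, with a log2 fold change of 2.47 ± 0.43 (SE, limma-trend BH-adjusted p = 0.0061). Every Sirt6mKO library lay above every control, and the call was kept in all 6 leave-one-out fits. Only 20, 22 and 3 reads lay behind the values of control replicates 1, 2 and 3. The gene was not tested with a mean signal of at least 50. *Numb*, an inhibitor of Notch receptors, had 229, 268 and 261 in Sirt6mKO and 328, 368 and 360 in Ctrl, all Sirt6mKO libraries being lower. It fell by 0.48 on the log2 scale (SE 0.12, limma-trend BH-adjusted p = 0.035), and with a library left out the call was kept in 1 of 6 fits, the one without control replicate 1. With all 6 libraries it was also lost with trimmed mean scaling (adjusted p = 0.053 from limma-trend) and with no filter on low values (0.066).

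Among 5 genes described as RBPJ targets in MuSCs, *Pax7* and *Col6a2* moved in opposite directions. *Pax7* ranged from 1810 to 2307 in Sirt6mKO and from 3150 to 4066 in Ctrl, a log2 fold change of -0.84 ± 0.13 (SE, limma-trend BH-adjusted p = 0.0041). Only Sirt6mKO mice carried Pax7-ICNCre, and an effect of this allele on the *Pax7* value was not tested. *Col6a2*, a chain of type VI collagen, had 1295, 1084 and 1190 in Sirt6mKO against 954, 798 and 554 in Ctrl, with a log2 fold change of 0.66 ± 0.17 (SE, limma-trend BH-adjusted p = 0.044), and its call was kept in 1 of 6 fits with a library left out, again the one without control replicate 1. With all 6 libraries, the *Col6a2* call was also lost with trimmed mean scaling, a pseudocount of 0.1, no filter on low values and a mean signal of at least 50 (limma-trend BH-adjusted p of 0.053 to 0.082). Of the fibroblast markers, *Col1a1* and *Pdgfra* were higher in Sirt6mKO, with *Col1a1* overlapping between the groups, whereas *Col3a1*, the most abundant, had a log2 fold change of 0.06. *Dcn*, *Lum* and *Dpt* had 1.33, 1.39 and 0.39 and did not pass the adjusted p. By the study's methods, Sca1+, CD31+ and CD45+ cells were depleted, and Integrin-a7+/CD34+ cells or cells with a fluorescent reporter were then sorted. The methods do not say which of these sorts served each group. By the purity that the study states, a sizeable minority of the sorted cells lay outside the intended population. The part of fibroblast RNA in the value of *Col6a2* was not tested. *Col6a1*, *Col5a1* and *Col5a3* had log2 fold changes of 0.28, 0.17 and 0.47 and did not pass.

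The other roles held no call with all 6 libraries in the limma-trend fit described. The nuclear complex around RBPJ gave 11 tested genes between -0.27 and 0.42 on the log2 scale, with *Crebbp* at 0.01, a value that took either sign across the alternatives. The 10 genes of receptor cleavage had a median of 0.07, with *Adam10* at 0.14 and *Ncstn* at -0.05. At the upper end of this role was *Aph1c*, named after its values were seen, with a signal of 34, 27 and 25 against 14, 14 and 4 (limma-trend BH-adjusted p = 0.064). Past both thresholds it was called with the replicate block (adjusted p = 0.032), with a pseudocount of 5 (0.045) and without control replicate 1 (0.048), but not in the other alternatives run. It is a close paralog of *Aph1b*, which had a log2 fold change of 0.46 (limma-trend BH-adjusted p = 0.20), so reads of the pair are uncertain. Glycosylation genes lay between -0.22 and 0.20, and *Mib1*, a ubiquitin ligase for ligands, had -0.19. *Nrarp*, a feedback inhibitor induced by Notch, had a signal of only 8, 10 and 7 against 5, 7 and 5, close to the minimum level for testing.

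**Figure D5:**
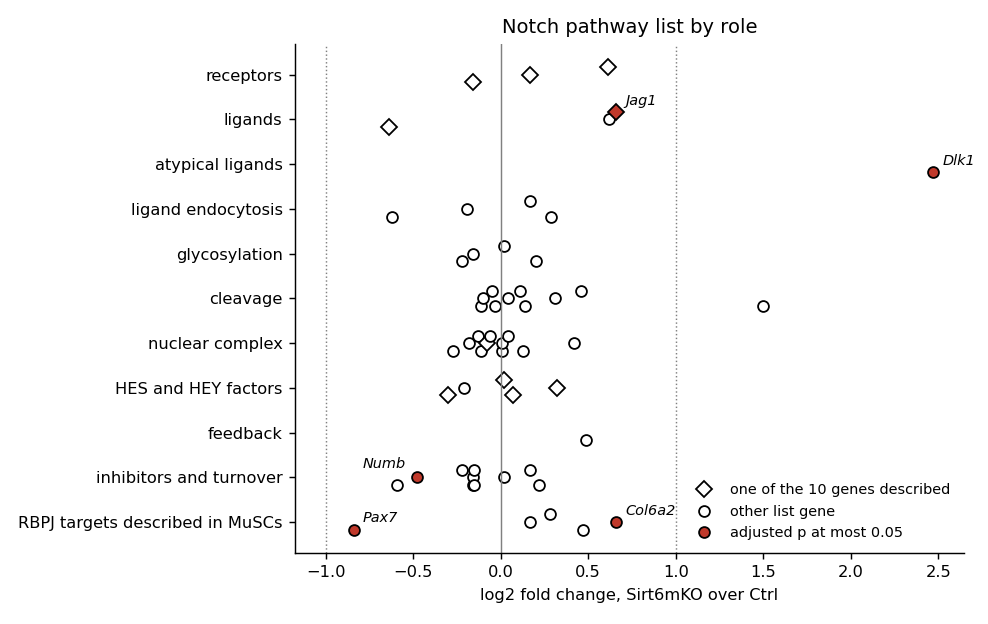
Log2 fold change of Sirt6mKO over Ctrl for the 57 tested genes of the pathway list, arranged by role, with diamonds for the 10 genes described and filled symbols for a BH-adjusted limma-trend p up to 0.05. *Jag1*, *Dlk1* and *Col6a2* are filled to the right, *Pax7* and *Numb* are filled to the left, and *Dlk1* at 2.47 is the only filled gene beyond a dotted line.

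Genes of other programs are given beside these results, whether or not they differed between the groups. Of 7 immediate early genes, which respond to stimulation and to cell dissociation, 5 were higher in Sirt6mKO at 0.05 by BH-adjusted limma-trend, with a summed signal of 13961 to 16279 against 8266 to 10277. Of the 5 genes whose profile over the 6 libraries lay closest to that of *Jag1* among 7393 candidates, *Ier2* is on this list of 7. Its Euclidean distance was 0.288 on the log2 scale. *Btg2* lay at 0.289. The other ones were *Mindy2* at 0.242, *Gm37488* at 0.255 and *Lamb2* at 0.256. This distance includes the difference between the groups, so genes with a fold change near that of *Jag1* lie close by construction. Myofiber markers summed to 1331, 1491 and 323 in Sirt6mKO and to 290 to 318 in Ctrl, with 2 of 8 higher. Tenocyte markers summed to 45, 567 and 215 in Sirt6mKO and to 29 to 40 in Ctrl, with all 4 above 0 and a median log2 fold change of 2.75, 0 of 4 past the adjusted p by limma-trend and 3 at an unadjusted p under 0.05. Of the myogenic commitment genes, *Myod1* was lower, at -0.86 on the log2 scale (limma-trend BH-adjusted p = 0.045), and *Myf6* was higher, at 1.88 (limma-trend BH-adjusted p = 0.0068). Fibroblast markers summed to 8680 to 10397 against 6486 to 10045, mostly from *Col3a1*. All 6 lay above 0, with a median log2 fold change of 1.36. By limma-trend, 2 of the 6 passed the adjusted p and 5 had an unadjusted p under 0.05. Markers of mural cells, which are known to express *Notch3* and *Heyl*, summed to 93 to 177 against 118 to 126, with 0 of 5 tested markers past the adjusted p by limma-trend and 1 at an unadjusted p under 0.05. The endothelial sum was 373 to 451 against 467 to 574, nearly all from *Tek*, and the Schwann cell sum was 50 to 107 against 80 to 116. The part of these programs in the values of the Notch pathway genes was not tested.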

How the data were processed

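The libraries were made from FACS-isolated MuSCs and sequenced with reads of 75 bases. Per the labels, rRNA was removed with RiboGone and libraries were made with a SMARTer Stranded kit, whereas the study's methods name another kit. According to the submitters' processing notes, the tools included Trimmomatic 0.39, STAR 2.7.10a, featureCounts 2.0.2 and DESeq2 1.30.1, whereas the methods name Reaper for trimming. Use of strand in counting is not given in the sources used here.

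The deposited signal has no stated unit. It was taken to be the authors' reads per gene divided by 1 size factor per library (0.558 to 1.372) and rounded to whole numbers. The factors were recovered from how often each low whole number occurs. Of the whole numbers from 1 to 60, some were missing only in control replicates 1 and 3. The 1267027 to 3209958 recovered reads set the precision of low values.

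Rows were matched by symbol. Log2(signal + 1) of the 14227 genes at a mean signal of 5 or more was fitted with limma-trend (limma 3.58.1, R 4.3.3), Sirt6mKO against Ctrl, with Benjamini-Hochberg adjustment over all of them. The thresholds, an adjusted p of 0.05 and a fold change of 2, follow the study's methods. A fold change on this scale understates the change of low genes. Exon lengths came from GENCODE M21 (GRCm38), in which 99.7% of identifiers were found, and all 10 genes had the same coordinates as in the table. Tables and plots were made in Python 3.11.15 with pandas 2.3.3 and matplotlib 3.10.9. The fit was tested on simulated data.

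The 10 genes, the pathway and marker lists and the tests were chosen with earlier results of these data known. Named were all 10 genes, list genes past the adjusted p, the most abundant genes of a role or marker list, and the 5 genes closest to the gene with the lowest p. A list gene that this rule would name is not reported here. Alternatives were other scalings, pseudocounts, filters and settings of limma, voom, a replicate block and leaving out each library. The alternatives for shares were added after seeing the data.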

Additional observations from a re-analysis of the deposited data

How the results depend on the processing

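Of 189 values of the 10 genes under an alternative, 176 kept their direction and side of the threshold, 3 no longer passed, 5 newly passed and 5 changed sign. Those that no longer passed were *Jag1* with a library left out, and those that newly passed were *Notch3* with a mean signal of at least 1, robust empirical Bayes, limma voom, the replicate block and without control replicate 1. Of 356 values of other list genes, 328 kept both, 16 no longer passed (*Numb* and *Col6a2*), 3 newly passed (*Aph1c*) and 9 changed sign. *Crebbp* was at -0.01 with upper quartile scaling, library size scaling, log2 CPM and without control replicate 1, and ran from -0.05 to 0.07 with a library left out. *Hes6* ran from -0.11 to 0.11 with a library left out and was at -0.00 with library size scaling and log2 CPM. With a library left out, *Hey2* ran from -0.62 to 0.17, *Poglut1* from -0.03 to 0.35, *Ncstn* from -0.16 to 0.04 and *Hey1* from -0.02 to 0.16. The cause was not tested.

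Past both thresholds, 223 of all tested genes were higher and 145 lower. A mean signal of at least 50 gave 76 and 52 among 7394 tested genes. An adjusted p of at most 0.01 gave 93 and 77, and the adjusted p alone gave 376 and 267. With 1 library left out the counts ran from 97 to 291 higher and from 84 to 152 lower, the lowest being without Sirt6mKO replicates 2 and 1. Of the 10 genes, 1 was higher by the adjusted p alone. Of the pathway list, 1 gene was higher past both thresholds, 2 were with a pseudocount of 5 (*Dlk1* and *Aph1c*), 0 with a mean of at least 50, and 3 were higher and 2 lower by the adjusted p alone. With 1 library left out the list gave 1 to 2 higher genes, 2 being without control replicate 1. With the replicate block it gave 2. The numbers share no stated animal or day, and the deviations of same-numbered libraries correlated at 0.02, 0.07 and 0.19, so they were not taken as pairs. Under the block 268 genes were higher and 167 lower, and the adjusted p of *Notch3* was 0.017. Differences in shares moved by less than 1 SD in all alternatives run. Depth limits *Hes6*, *Nrarp*, *Notch4*, the control values of *Dlk1* and the genes too low to test.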
